A study of Drosophila melanogaster with 3 samples.

Results

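Rab GTPases are small proteins that switch between an inactive GDP-bound and an active GTP-bound state and give each membrane compartment of the cell its identity. Exchange factors load them with GTP on a chosen membrane, effectors such as tethers and motors are then recruited, and GTPase-activating proteins end the cycle. Some members serve the secretory and endosomal routes that every cell uses, whereas others are known mainly from neurons or from specialised organelles. The 30 genes described here are the protein-coding genes of Drosophila melanogaster whose name is Rab or RabX followed by a number and, where present, capital letters, out of 13945 protein-coding genes on the main chromosome arms.

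Binding was mapped by chromatin immunoprecipitation and sequencing (ChIP-seq) in whole embryos of 0 to 24 h, male and female pooled, of the strain CG9797-GFP, which stably expresses CG9797 with GFP at its C-terminus. CG9797 is the zinc-finger factor M1BP (Motif 1 binding protein), known from fly cells as a factor of core promoters that carry the element Motif 1, many of which belong to broadly active genes. The 3 biological replicates form the only group, so there is no contrast between conditions, and the promoter that drives the transgene is not given in the sources used here. A line of the labels describes the libraries as input, while the assay title and the antibody field, which names CG9797 and no anti-GFP reagent, describe immunoprecipitated material, and every value below carries that uncertainty. A gene was counted as bound when the summit of a peak in the thresholded list of 4598 peaks lay within 250 bp of one of its start sites. That list was filtered by the authors for reproducibility between replicates. Signal values are the authors' peak scores on a scale that is not given, and are compared within 1 list only. Between replicates the rank of the strongest entry at a gene is given, where rank 1 is the strongest of the 30000 entries in each replicate's list. Read depth is unknown.

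The members were sorted into 3 classes from general knowledge of fly Rabs, since expression was not measured here. Earlier results of these data were known when the classes were chosen. The ubiquitous class held Rab1, Rab2, Rab4, Rab5, Rab6, Rab7, Rab8, Rab10, Rab11, Rab14, Rab18, Rab21, Rab35 and Rab39. The neuronal or lineage-limited class held Rab3, Rab26, Rab27 and RabX4, known from neurons, and Rab32, known as lightoid for its role in eye pigment granules. The other 11 members were left unclassified.

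The promoters of 6 members are shown, which run from a strong peak with Motif 1 to no peak. They comprise 3 of the strongest bound ubiquitous members, the bound limited member, and 1 unbound member of each of these classes. Each runs 5′ to 3′ along the gene from 150 bases before to 30 bases after a start site (RefSeq Release 6 sequence, dm6 coordinates). Capitals mark the Motif 1 core (GGTCACACT, read on either strand, up to 1 mismatch) and the DNA replication-related element (DRE, TATCGATA), which is known as the site of the factor DREF. The windows are chr2L:14354995-14355174 (plus strand), chr2L:2365244-2365423 (minus strand), chr2L:12109087-12109266 (minus strand), chrX:1476945-1477124 (minus strand), chrX:5671783-5671962 (minus strand) and chr3L:21318624-21318803 (plus strand).
Rab14: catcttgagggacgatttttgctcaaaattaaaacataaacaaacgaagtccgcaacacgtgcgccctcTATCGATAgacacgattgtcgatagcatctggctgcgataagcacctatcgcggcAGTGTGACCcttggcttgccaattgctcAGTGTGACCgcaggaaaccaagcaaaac
Rab5: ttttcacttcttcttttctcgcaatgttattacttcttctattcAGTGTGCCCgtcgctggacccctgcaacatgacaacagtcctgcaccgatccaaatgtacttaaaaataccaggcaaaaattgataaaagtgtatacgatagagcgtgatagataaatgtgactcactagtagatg
Rab6: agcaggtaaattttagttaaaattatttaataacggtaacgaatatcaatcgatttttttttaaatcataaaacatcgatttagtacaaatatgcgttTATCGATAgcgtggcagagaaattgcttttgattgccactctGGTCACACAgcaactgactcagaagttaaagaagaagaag
Rab27: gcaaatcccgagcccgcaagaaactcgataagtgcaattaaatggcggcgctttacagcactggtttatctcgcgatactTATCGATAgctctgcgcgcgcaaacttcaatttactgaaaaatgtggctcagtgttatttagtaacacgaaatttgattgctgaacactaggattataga
Rab18: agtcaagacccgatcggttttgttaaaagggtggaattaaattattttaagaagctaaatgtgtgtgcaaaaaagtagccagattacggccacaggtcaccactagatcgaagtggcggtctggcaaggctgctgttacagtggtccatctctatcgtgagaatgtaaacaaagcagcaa
Rab26: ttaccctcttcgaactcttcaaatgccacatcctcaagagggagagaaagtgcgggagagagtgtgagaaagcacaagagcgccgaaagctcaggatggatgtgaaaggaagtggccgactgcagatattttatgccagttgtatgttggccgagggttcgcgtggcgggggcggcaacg
In Rab14 the capitals are a DRE followed by 2 exact Motif 1 cores. Rab5 carries a core with 1 mismatch, Rab6 a DRE and a core with 1 mismatch, and Rab27 a DRE alone. The windows of Rab18 and Rab26, which were unbound, hold neither element. These 6 do not stand for all members. Of other unbound Rabs, Rab19 and RabX6 carry a DRE and Rab4 a core with 1 mismatch. The bound Rab1, Rab10, Rab11, Rab21, Rab39 and RabX1 carry neither element in the longer promoter window searched below.

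Ubiquitous Rab genes were mostly bound, whereas the share of the limited ones was not far from that of all genes. Of the 30 Rab genes 17 were bound (56.7%), beside 31.1% of all protein-coding genes. The ubiquitous class had 12 of 14 bound (85.7%), all but Rab4 and Rab18. The limited class had 1 of 5 bound (20%), which was Rab27, and the unclassified members had 4 of 11 (36.4%), which were Rab23, Rab30, Rab40 and RabX1. No test of the difference between the classes was made, as the lists are small and were chosen with earlier results of these data known.

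The replicates gave the same order of the ubiquitous and limited classes. Among the 4598 strongest entries of each replicate, 12, 10 and 11 of the 14 ubiquitous Rabs had a summit within 250 bp of a start site in replicates 1, 2 and 3 (78.6% ± 7.14, SD, n = 3). The limited class had 1, 1 and 0 of 5 (13.3% ± 11.5, SD, n = 3), and the unclassified members had 4, 3 and 4 of 11 (33.3% ± 5.25, SD, n = 3). All 30 Rabs together had 17, 14 and 15, which is 56.7%, 46.7% and 50%, beside 31.3%, 28.3% and 29.3% of all protein-coding genes in the same lists. The 11 Rabs found in all 3 replicates were Rab2, Rab5, Rab6, Rab7, Rab8, Rab14, Rab21, Rab23, Rab30, Rab39 and RabX1. In replicates 2 and 3 the 4598 strongest entries reach below a −log10 q-value of 2. Rab4 counted in replicate 2 at 1.98, and Rab7, Rab10 and Rab40 in replicate 3 at 1.73, 1.55 and 1.58. In replicate 1, where 6060 entries share the highest value, Rab4, Rab40 and RabX6 fell outside by rank though each had it (4.08). With a summit required in both remaining replicates, the count of bound Rabs was 11 without replicate 1, beside 21.9% of all genes, and 0 for the limited class without replicate 1 or without replicate 2.

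**Figure D1:**
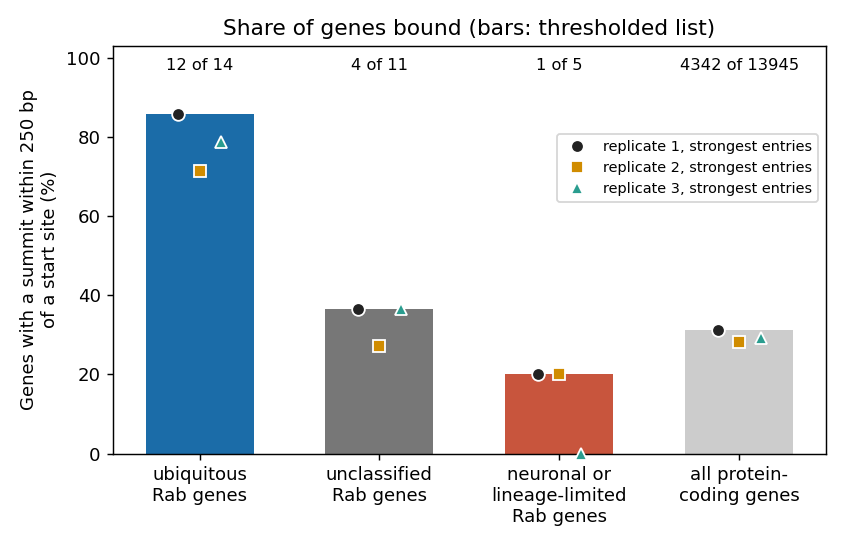
Bars give the percentage of genes with a thresholded summit within 250 bp of a start site, for the 3 classes of Rab genes and for all protein-coding genes, and symbols give the same share among the 4598 strongest entries of each replicate. The ubiquitous class stands at 85.7% and the limited class at 20%, and in each replicate the ubiquitous share is the higher of these.

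Rab peaks were frequent, and most of them lay below the median signal value of all bound genes. The 17 bound members had signal values from 273 to 2600 with a median of 513, beside a median of 690 over all bound genes, and 6 of the 17 lay above that median. Of the ubiquitous class 5 did so, and of the unclassified members Rab23 alone. When the list was restricted to peaks above its own median signal value, 8 Rabs stayed bound (26.7%, beside 19.5% of all genes), of which 5 were ubiquitous and none was limited.

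The strongest peak lay at Rab14, which acts on endosomes and phagosomes (2L, 14355145 to 14358764). It ranked 73, 57 and 114 in replicates 1, 2 and 3, and its thresholded signal value was 2600 (rank 60). Its summit lay 12 bp upstream of the start site, between the 2 Motif 1 cores shown above, and a second, weaker summit of 940 lay 193 bp downstream of the start. Rab14 had the best rank of all Rabs in every replicate.

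Other members of the secretory and endosomal core followed. Rab2, which acts at the Golgi and in fusion with lysosomes (2R, 6696739 to 6699469), ranked 271, 109 and 590, with a signal value of 1948. Rab5, the regulator of early endosomes (2L, 2359142 to 2365273), ranked 164, 1271 and 126, with a signal value of 1621. The Rab5 rank in replicate 2 was the weakest of its 3 replicates. Rab6, a Golgi Rab (2L, 12107221 to 12109116), ranked 684, 1120 and 531, with a signal value of 1133 and a summit 8 bp upstream of the start. Its ranks lay inside the strongest 4598 entries in all replicates, as did those of Rab21, an endosomal Rab (X, 23012140 to 23013409), which ranked 1519, 1070 and 1757 with a signal value of 869.

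Several equally basic members, of early secretion, late endosomes and recycling among them, had weaker peaks. Rab8, which acts in transport from the Golgi to the plasma membrane (3L, 19867488 to 19871078), ranked 3042, 1750 and 3082 with a signal value of 513. Rab7, the regulator of late endosomes and lysosomes (3R, 23993008 to 23995452), ranked 3980, 1992 and 3684 with a signal value of 443. Rab39 (X, 7734923 to 7736756) ranked 2975, 2114 and 2565 with a signal value of 511. These 3 were inside the strongest 4598 entries of every replicate, with the best rank in replicate 2. Rab1, which drives transport from the endoplasmic reticulum to the Golgi (3R, 21266029 to 21269060), ranked 4150, 2286 and 5644 with a signal value of 381, so replicate 3 placed it outside. Rab11, the Rab of recycling endosomes (3R, 21111408 to 21116146), ranked 3048, 6510 and 2954 with a signal value of 317, so replicate 2 placed it outside.

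The weakest ubiquitous peaks lay on X and rested on replicates 1 and 3. Rab10, known in the fly for polarised secretion of basement membrane (X, 20251338 to 20254691), ranked 3216, 17074 and 3840 with a signal value of 300. Rab35 (X, 20155766 to 20159872) ranked 3778, 17501 and 3014 with a signal value of 297. Replicate 2 thus ranked both far lower than the other replicates did. Rab40, whose product carries a SOCS box and is unclassified here (X, 12459796 to 12463112), ranked 4642 in replicate 1 and 3815 in replicate 3 and was not listed in replicate 2, and its signal value of 273 was the lowest of the bound members. The 501 bp around the summits of Rab10, Rab11, Rab35 and Rab40 had a GC content of 38.3%, 32.3%, 32.3% and 32.9%, beside a median of 39.7% over all thresholded peaks. Rab5 at 33.3% and Rab39 at 35.9% were nonetheless ranked 1271 and 2114 by replicate 2. The part of base composition in the ranks of replicate 2 was not tested. Of the 10 Rabs on X, 6 were bound with a median signal value of 345, beside 11 of 20 with a median of 635 on the other arms. Over all genes 33.1% were bound on X with a median of 604, and 30.8% on the other arms with a median of 706.

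**Figure D2:**
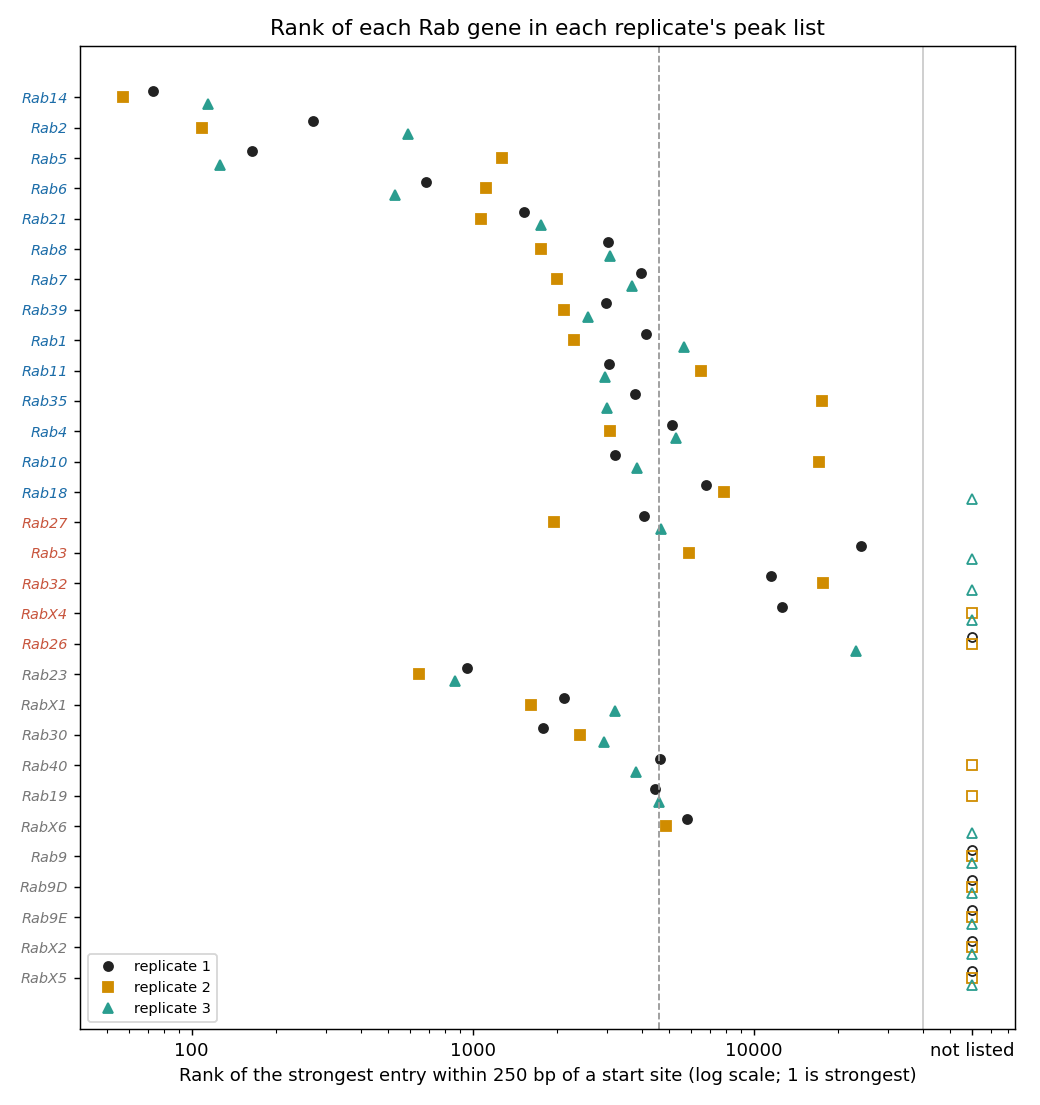
Each row is a Rab gene, coloured by class (blue ubiquitous, red neuronal or lineage-limited, grey unclassified), and the horizontal axis gives on a log scale the rank of its strongest entry within 250 bp of a start site in each replicate's list of 30000. The dashed line marks rank 4598 and open symbols at the right edge mark replicates with no entry there. Rab14 ranks 57 to 114 in all replicates, whereas in the limited class only Rab27 passes the line.

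Among the unclassified members, Rab23, known in the fly for planar polarity of the epidermis (3R, 5680054 to 5685434), ranked 954, 647 and 869 with a signal value of 1209. Rab30 (2L, 7030493 to 7032606) ranked 1784, 2415 and 2939 with a signal value of 635. RabX1 (2R, 23519839 to 23523613) ranked 2110, 1617 and 3206 with a signal value of 604. All 3 lay inside the strongest entries of every replicate. Moving 6 unclassified members (Rab9, Rab19, Rab23, Rab40, RabX1 and RabX6) into the limited class gave 4 of 11 bound (36.4%), a share above the 31.1% of all genes, so the lower share of that class rests on its narrow definition.

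In the limited class the bound member, Rab27, a Rab of regulated secretion (X, 1473884 to 1476974), ranked 4055, 1941 and 4691 with a signal value of 391. Its summit lay 122 bp upstream of the Rab27 start and 33 bp from the start of the divergent gene mei-38, which encodes a microtubule-associated spindle protein. Assigned to the nearest start site only, the peak counted for mei-38, and 0 of 5 limited Rabs were bound. Rab3, the Rab of synaptic vesicles (2R, 10721335 to 10729203), ranked 24089 in replicate 1 and 5908 in replicate 2 and was not listed in replicate 3. RabX4 (3R, 24826665 to 24828409) ranked 12562 in replicate 1 and was not listed in the others. Neither had an entry among the strongest 4598 of any replicate. Rab26, which is associated with synaptic vesicles (3L, 21318774 to 21335027), was listed in replicate 3 alone, at rank 23044 and 250 bp upstream of the start. Rab32 (2R, 9177864 to 9186342) ranked 11551 and 17604 in replicates 1 and 2 and was not listed in replicate 3. In whole embryos of mixed age, a promoter bound in few cells and one not bound at all cannot be told apart.

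The unbound ubiquitous members were Rab4 and Rab18. Rab4, a Rab of fast endosomal recycling (2R, 17573462 to 17574979), ranked 5111, 3089 and 5297. It stood at rank 4993 of the pooled list with a score of 239, whereas Rab40, the weakest bound member, stood at 4438 with 273. Rab18, known in mammals from lipid droplets and the endoplasmic reticulum (X, 5670827 to 5671812), ranked 6772 and 7841 in replicates 1 and 2 and was not listed in replicate 3. Rab4 was thus among the strongest entries of replicate 2 only, and Rab18 of none.

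The other unbound members were unclassified. Rab19 (3L, 8297018 to 8298506) ranked 4437 in replicate 1 and 4601 in replicate 3, on either side of rank 4598, and was not listed in replicate 2. RabX6 (3L, 690517 to 691951) ranked 5785 and 4880 in replicates 1 and 2 and was not listed in replicate 3. Rab9, a Rab of late endosomes, RabX5, RabX2, Rab9D and Rab9E had no entry within 250 bp of a start site in any replicate. Part of the sequence around 3 of these is repeated in the genome. Within 250 bp of the start site, 86.8% of the 31-base words of Rab9E, 40.8% of those of Rab9D and 12.3% of those of RabX2 were found again on the main arms, against 0 of 471 words at every other Rab. Whether short reads could be placed there was not tested. The related genes Rab9Db, Rab9Fa and Rab9Fb, which the name pattern leaves out, had no entry either.

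Summits lay close to the start sites, mostly just upstream. Of the 17 bound members 15 had the summit upstream of the nearest start site and 2, Rab5 and Rab8, downstream in a 5′ UTR exon, at 55 and 21 bp. The Rab21 summit also lay in a 5′ UTR exon. It was 71 bp upstream of an internal start site, but downstream of the most upstream one. The median distance was 55 bp, beside 57 bp over all bound genes, and 88.2% of the bound Rabs had the summit upstream, beside 84.3% of all bound genes. At 12 of the 17 the summit lay within 100 bp, and the exceptions were Rab27, Rab35, Rab39, Rab40 and RabX1. Rab39 had the most distant summit, at 225 bp, and it lay 47 bp from the start of its divergent neighbour Pdp.

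**Figure D3:**
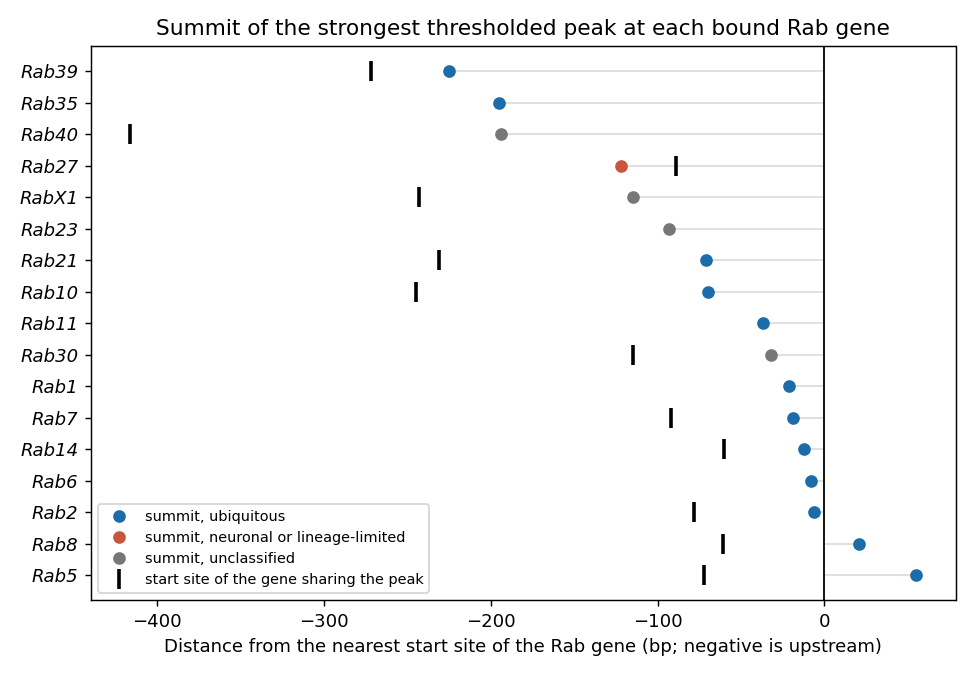
Dots give the summit of the strongest thresholded peak at each of the 17 bound Rab genes, in bp from the nearest start site of that gene (vertical line at 0, negative is upstream), and black ticks give the start site of a second gene within 250 bp of the same summit. Of the dots 15 lie upstream, and 12 rows carry a tick.

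Most bound Rabs shared their peak with a divergent neighbour. A start site on the opposite strand lay within 1000 bp upstream at 18 of 30 Rabs (60%), beside 36.2% of all protein-coding genes. Of these 18 Rabs 14 were bound (77.8%), beside 56% of all genes with such a neighbour, and of the 12 Rabs without one 3 were bound (25%), beside 17% of all such genes. A peak at a close neighbour can count for the Rab as well, so these shares depend in part on the calling rule. At 12 of the 17 bound Rabs the same summit was also no more than 250 bp from a second gene, measured to its start. The summit was nearer to the Rab start in 10 of these 12 pairs, the exceptions being Rab27 and Rab39. How often bound genes at large share a peak is not given here, so sharing is not shown to be a Rab trait. Of the 4342 bound genes, 2828 had a divergent start within 1000 bp.

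Bound members had the closer divergent neighbours, a pattern that the calling rule partly brings about. A summit between starts up to 250 bp apart counts for both genes, and at 501 to 1000 bp no summit can lie that close to both. The 14 bound Rabs had their divergent start 60 to 421 bp away, with a median of 104 bp, and the 4 unbound Rabs had it 436 to 754 bp away, so the widest bound and the closest unbound pair lay at nearly the same distance. The closest pairs were Rab14 with l(2)34Fd at 60 bp, Rab8 with the ubiquitin protease gene Usp32 at 61 bp, Rab5 with Axud1 at 72 bp and Rab2 with the kinase-associated factor gene Mob4 at 78 bp. The widest were Rab26 with the Polycomb gene Pc at 754 bp, Rab4 with the respiratory complex III gene UQCR-6.4 at 678 bp, Rab18 with the ribosomal protein gene RpL35 at 589 bp and RabX6 with CG32483 at 436 bp. At 3 of these 4 wide pairs a thresholded peak lay at the neighbour instead. Its summit was 1 bp from a start of UQCR-6.4 with a signal value of 704, 65 bp from that of Pc with 1401, and 56 bp from one of RpL35 with 496. Over all genes the bound share also fell with spacing. It was 69.8% at 1 to 250 bp, 58.3% at 251 to 500 bp and 30.4% at 501 to 1000 bp, where the Rabs had 10 of 10, 4 of 5 and 0 of 3.

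**Figure D4:**
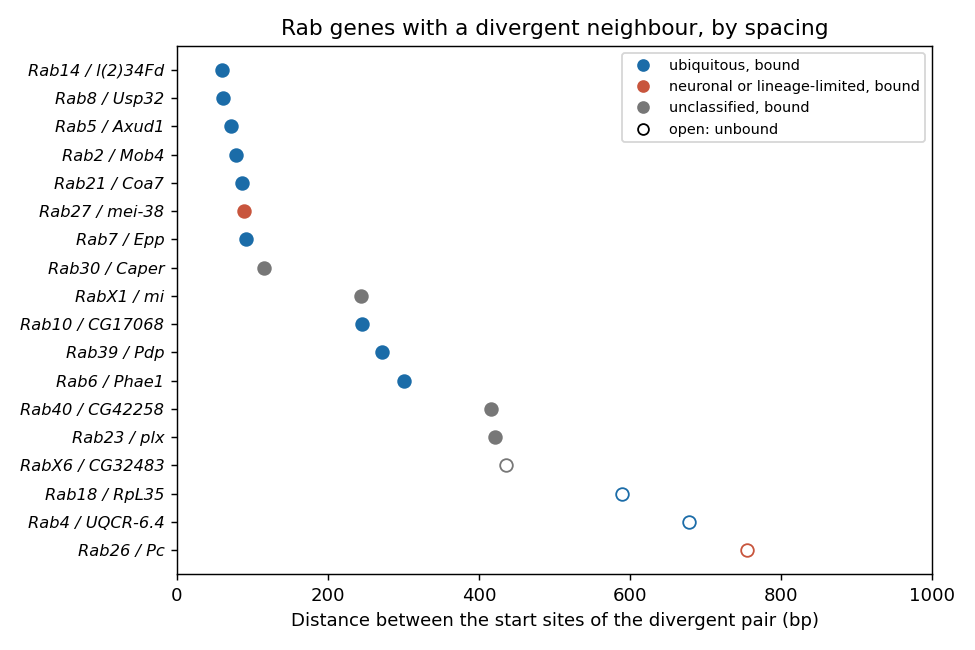
Each row is a Rab gene with its divergent neighbour, and the horizontal axis gives the distance in bp between their start sites. Filled dots are bound Rabs, which lie at 60 to 421 bp, and open dots are unbound Rabs, which lie at 436 to 754 bp.

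Rab23 and plx form a divergent pair within the Rab system itself, as plx encodes a TBC-domain protein, the domain of Rab GTPase-activating proteins. Their starts lay 421 bp apart and each had a peak of its own, with signal values of 1209 at Rab23 and 967 at plx. The ubiquitous class had more divergent members, 11 of 14, than the limited class with 2 of 5 and the unclassified members with 5 of 11. Without a divergent start, the 3 ubiquitous Rabs (Rab1, Rab11 and Rab35) were bound, and none of the 3 limited (Rab3, Rab32 and RabX4) or 6 unclassified ones was. The difference between the classes thus appeared in members without a divergent neighbour too, on 3 genes each, and was not tested. Of all protein-coding genes without a divergent start 17% were bound, so 3 unbound limited members do not show a share below that.

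Exact Motif 1 was found at 1 of 30 Rab promoters (3.33%), near the share of all genes, and the DRE was frequent. Between 250 bases before and 50 after the most upstream start site, the Motif 1 core was found in 1 of 17 bound Rabs (5.88%) and in 0 of 13 unbound ones. This stood beside 18.3% of all bound genes and 6.05% of all protein-coding genes. On 17 bound Rabs, a share lower than that of all bound genes rests on few promoters and was not tested. The Rab with a match was Rab14, with cores beginning 26 bases before the start and at base 3 after it, the member with the strongest peak. Allowing 1 mismatch added Rab2, Rab5, Rab6 and Rab23 among the bound and Rab4 among the unbound, which gave 5 of 17 (29.4%) and 1 of 13, beside 40.8% of all bound genes and 15.5% of all genes. These 5 bound members were the 5 strongest Rab peaks. Within 100 bp of the summit, however, the core with up to 1 mismatch lay at Rab2, Rab6, Rab14, Rab21 and Rab23. That is 29.4% of bound Rabs, beside 33.2% of all thresholded peaks. The Rab5 match began 106 bases before the start, whereas its summit lay 55 bp after it.

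The DRE was present in 9 of 17 bound Rabs (52.9%) and in 2 of 13 unbound ones (15.4%), which were Rab19 and RabX6. It was present in 17.8% of all bound genes and 9.36% of all protein-coding genes. In Rab2, Rab6, Rab30 and RabX6 it began 47 to 52 bases before the start, and in Rab7, Rab8, Rab19, Rab35 and Rab40 a match began 12 to 20 bases before it. In Rab14 and Rab27 it began 81 and 70 bases before, and Rab35 had a further match at 170. Within 100 bp of the summit the DRE was found at 8 of 17 bound Rabs (47.1%), beside 10.9% of all thresholded peaks, and the Motif 1 core at 1 of 17 (5.88%), beside 14.5%. Of the 11 Rabs with the element 9 were bound, beside 775 of the 1305 protein-coding genes with it. A match is a stretch of letters and says nothing of which factor was present.

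**Figure D5:**
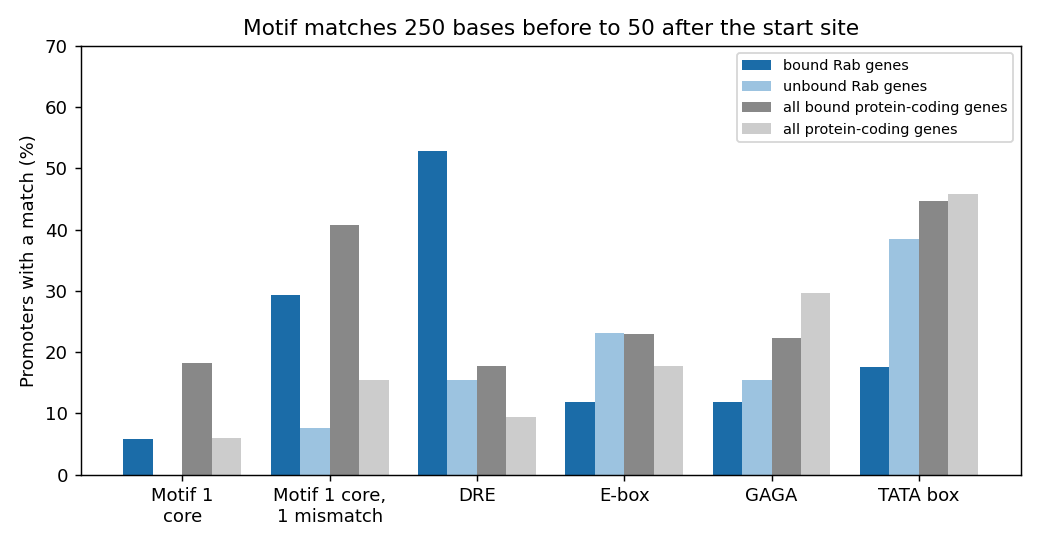
Bars give the percentage of promoters (250 bases before to 50 after the most upstream start site) with a match to each motif on either strand, for bound Rab genes, unbound Rab genes, all bound protein-coding genes and all protein-coding genes. The DRE stands at 52.9% in bound Rabs and 17.8% in all bound genes, and the exact Motif 1 core at 5.88% and 18.3%.

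The other elements searched were found in few bound Rabs. The E-box (CAGCTG) was found in 2 of 17 bound Rabs (11.8%) and 3 of 13 unbound ones (23.1%), beside 17.7% of all genes, a difference of few promoters. The GAGA element (GAGAG) was found in 2 of 17 bound Rabs (11.8%) and 2 of 13 unbound ones (15.4%), beside 29.7% of all genes. The TATA box (TATAAA) was found in 3 of 17 bound Rabs (17.6%) and 5 of 13 unbound ones (38.5%), beside 45.8% of all genes. The limited member Rab32 had 3 TATA box matches and 1 GAGA match, and Rab26 had 3 GAGA matches, beginning 109, 95 and 93 bases before its start, of which the last 2 overlap. No exact Motif 1 core was found in any limited Rab, nor in any other Rab but Rab14, beside 6.05% of all genes. Its absence thus does not set the limited class apart.

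The genes that run the Rab cycle were also bound in most cases. Of 49 listed names 40 matched a gene, and 27 of these were bound (67.5%, beside 56.7% of the Rabs and 31.1% of all protein-coding genes), with a median signal value of 494, beside 690 over all bound genes. Of the carriers and prenylation genes 3 of 4 were bound, RabGGTa (787) and RabGGTb (377), the subunits of the enzyme that attaches the lipid anchor, and the escort protein gene Rep (319). Gdi, whose product extracts Rabs from membranes, was unbound, though its best entry ranked 2488 in replicate 2, against 10064 in replicate 3 and no entry in replicate 1. Of the exchange factors 7 of 11 were bound, among them pcs (2330) and strat (1241). Of the GTPase-activating proteins 10 of 14 were bound, led by Evi5 (1332), Tbc1d15-17 (1078) and TBC1D5 (1001). Of the effectors 8 of 12 were bound, led by Evi5, which is on both lists, nuf (866) and Plekhm1 (718).

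Genes of the Rab3 branch were named after their values were seen. Rab3-GEF, which activates Rab3, the active-zone gene Rim, the rabphilin gene Rph and Rab3-GAP were unbound, like Rab3, whereas Rab3GAP1 was bound with a signal value of 495. Small GTPases of other families gave a contrast in strength. Of 13 matched genes 11 were bound (84.6%, beside 31.1% of all protein-coding genes), with a median signal value of 1609, beside 513 for the bound Rabs and 690 for all bound genes. These were Rala (2966), Rho1 (2506), Sar1 (2403), Ras64B (1915), Rheb (1630), Rac1 (1609), Arl1 (819), Ran (464), Ras85D (420), Cdc42 (331) and Rap1 (325), and Arl2 and Rac2 were unbound. The difference between the lists was not tested.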

How the data were processed

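The 3 replicates were taken from the labels, and nothing else was grouped. Per the deposited file notes, each replicate's list was called on dm6 from its own alignment with a shared control, the pooled list from all 3 alignments, and the thresholded list from these 4 by irreproducible discovery rate (IDR). Which tools aligned the reads and called the peaks, at what versions, and the IDR cut-off are not given in those notes, and the control was not analysed here. The deposited signal value is a score of the authors' peak caller, and the deposited −log10 q-value reaches its ceiling in 4445 of 4598 thresholded peaks. The summit is the deposited offset from the interval's start. Read depth is unknown.

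Start sites are those of protein-coding transcripts in Ensembl release 115 (BDGP6.54), on dm6 coordinates: 19252 distinct sites of 13945 genes. Sequence is RefSeq Release 6. Genes were called bound from thresholded summits no more than 250 bp from any start site, and in a replicate from its 4598 strongest entries by the same rule. Motifs were searched as exact letters on both strands. The calls were tested on planted peaks. The members, classes and lists were chosen with earlier results of these data known. All members were named. Promoters shown are the 3 strongest bound ubiquitous members, the strongest bound limited one and the first unbound one of each class, leaving out arm 2R. No significance test was made. Python 3.11.15, numpy 2.4.6, pandas 2.3.3 and matplotlib 3.10.9 were used.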

Additional observations from a re-analysis of the deposited data

How the results depend on the processing

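The count of bound Rabs (17 of 30 in the thresholded list) lay between 12 and 18 when the distance, the choice of start sites, the nearest-gene assignment, the interval rule or the list was changed. The 12 (40%, beside 23.3% of all genes) came from a summit within 100 bp. The 18 (60%, beside 34.6%) came from the pooled list. The count fell to 8 with peaks above the median signal value (26.7%, beside 19.5% of all genes). It ranged from 11 to 14 (36.7% to 46.7%, beside 21.9% to 26.8%) when 1 replicate was left out and a summit was required in both others. That is a stricter rule by construction. In the same settings the ubiquitous count (12 of 14) fell to 5 above the median and ranged from 8 to 11, and was 7 of 7 for the narrow class of Rab1, Rab2, Rab5, Rab6, Rab7, Rab8 and Rab11. The limited count (1 of 5) rests on the Rab27 peak. It was 0 with a summit within 100 bp, above the median, in the strongest entries of replicate 3 and with nearest-gene assignment, 0 to 1 without 1 replicate, and 4 of 11 for the wide class. The Motif 1 core count (1 of 30) was 6 with up to 1 mismatch (20%, beside 15.5% of all genes). It was 1 in the shorter windows (3.33%, beside 5.82%). In every setting the bound shares of all Rabs and of ubiquitous Rabs were above that of all genes. The limited share was below it except for the wide class (36.4%, beside 31.1%). The pooled list with a −log10 q-value of at least 2, a setting chosen after seeing the data, gave 18, 13 and 1, adding Rab4. No paired analysis was possible because there is 1 group. With depth unknown, a gene without an entry is not shown to lack binding.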

Other observations

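Peaks near the Rab genes but not at their start sites lay almost wholly at the promoters of neighbours. In the Rab genes and up to 1000 bp from them, 14 further thresholded summits were found at 10 Rabs, and 0 of them lay inside the Rab gene. Of the 14, 13 were no more than 250 bp from the start of another gene, and the exception lay 292 bp upstream of Rab11 with a signal value of 323. Downstream of a Rab gene, the strongest were at the ribosomal protein gene RpL23A beside RabX5 (1585), at the mitochondrial import gene Tom40 beside Rab39 (1382), at ppan beside Rab11 (1359) and at the SNARE gene Vti1a beside RabX6 (1052). RabX5 and RabX6 were thus unbound next to genes with peaks stronger than those of most bound Rabs. The share of all thresholded peaks no more than 250 bp from a start site is not given here, so these counts have no background beside them.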
